A study of Mus musculus with 8 samples.

Results

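The 6 genes described here are Cdx1, Cdx2, Cdx4, Nkx1-2, Msgn1 and Mesp2, transcription factor genes of the caudal body axis and its progenitors. They were taken by symbol from the 55421 genes of the deposited TPM table, each matched 1 row, and 3 of them (Cdx1, Cdx2 and Nkx1-2) reached a mean of 1 TPM over all libraries. TPM, the deposited unit, is a transcript level scaled for gene length and library total. RNA was taken at embryonic day 9.5 from the vagal region of the mouse embryo, the level of somites 1 to 7. Of the 8 libraries, 4 were of Rdh10 trex/trex mutants (trex) and 4 were of wild type (wt), and the labels name no other allele or agent. Rdh10 encodes the enzyme that oxidises retinol on the way to retinoic acid. Neither pooling of embryos nor litters are stated in the labels, so the p-values measure the spread between these libraries, which may be partly technical. The wt libraries called replicates 1 to 4 here carry the numbers 5 to 8 in the labels, in the same order.

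The caudal end of the embryo grows from axial progenitors that give rise to both spinal cord and presomitic mesoderm, under Wnt and FGF signals from the tail bud, while retinoic acid from the somites acts on tissue leaving that zone. The Cdx genes encode homeodomain proteins that act upstream of trunk Hox genes. In mouse, Cdx1 is a direct target of retinoic acid and of Wnt signalling, Cdx2 also marks the hindgut endoderm, and Cdx4 is mostly restricted to the tail bud and caudal tissue. Nkx1-2 encodes a homeodomain protein of the caudal epiblast and preneural tube, Msgn1 a bHLH factor of presomitic mesoderm, and Mesp2 a bHLH factor that places somite boundaries at the front of that mesoderm.

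Whole reads recovered from the TPM steps came to between 20926427 and 23645542 per library. Rdh10 itself, whose trex allele need not lower its transcript, held 106, 66.2, 62.7 and 69.0 TPM in trex replicates 1 to 4, against 41.0, 36.3, 40.3 and 37.6 TPM in wt replicates 1 to 4. The Rdh10 log2 difference was 0.92 ± 0.15 (SE, adjusted p = 0.0126, limma), or 0.75 ± 0.06 without trex replicate 1 (adjusted p = 0.00118). Trex replicate 1 stood apart for several genes, and values of Wnt3a, T, Lin28a, Fgf8 and Notum are given without it below. Y-linked transcripts were present in wt replicates 2 and 3 (sums of 162 and 158 TPM), and no other library exceeded a sum of 0.0662 TPM. Over 15717 tested genes 1369 (8.71%) had an adjusted p below 0.05, 777 higher in trex and 592 lower, and the split was 633 and 739 after quantile normalization and 643 and 820 with voom on the recovered reads. These shares, 4.94% and 3.77% of tested genes, are the background for the counts below, and the trex values lay wholly above the wt values for 12.9% of tested genes and wholly below them for 8.95%.

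Cdx1 was the one gene of the 6 to pass the test, and it fell. It was lower in every trex library than in any wt library. Cdx1 (ENSMUSG00000024619, chromosome 18, 61018862 to 61036199, minus strand, mm10) held 4.06, 4.07, 3.99 and 3.99 TPM in trex replicates 1 to 4, against 5.89, 7.36, 13.1 and 10.9 TPM in wt replicates 1 to 4. The trex libraries were nearly level, whereas the highest wt library stood well above the lowest. It averaged 4.03 ± 0.0454 TPM in the trex libraries, 2.31-fold below the 9.32 ± 3.30 TPM of the wt libraries (SD, n = 4 each). On the log2(TPM + 1) scale, which understates changes of weakly expressed genes, the difference came to -0.98 ± 0.21 (SE; 95% interval -1.46 to -0.50; adjusted p = 0.0292, limma). An exact permutation test over the libraries, two-sided, returned the smallest p that this design allows, 0.0286. Among the 3 genes tested Cdx1 was the single fall and none rose, where 3.77% of all tested genes fell and 8.71% were called. In bulk tissue, fewer cells of a type and less RNA per cell cannot be told apart.

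The Cdx1 levels rested on few reads, 37 to 41 in the trex libraries and 56 to 134 in the wt libraries. Counting alone gives an SD of 0.637 TPM at the trex level, larger than the 0.0454 TPM between the trex libraries, so their close agreement is tighter than this depth can resolve. In wt the SD between libraries, 3.30 TPM, exceeded the 0.964 TPM of counting. The call was lost without trex replicate 3 or 4 or wt replicate 2, 3 or 4 (adjusted p from 0.0661 to 0.0789), and the difference stayed between -1.16 and -0.81 over all 8 such fits. With sex as a covariate, read from the Y-linked transcripts, the adjusted p was 0.192.

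**Figure D1:**
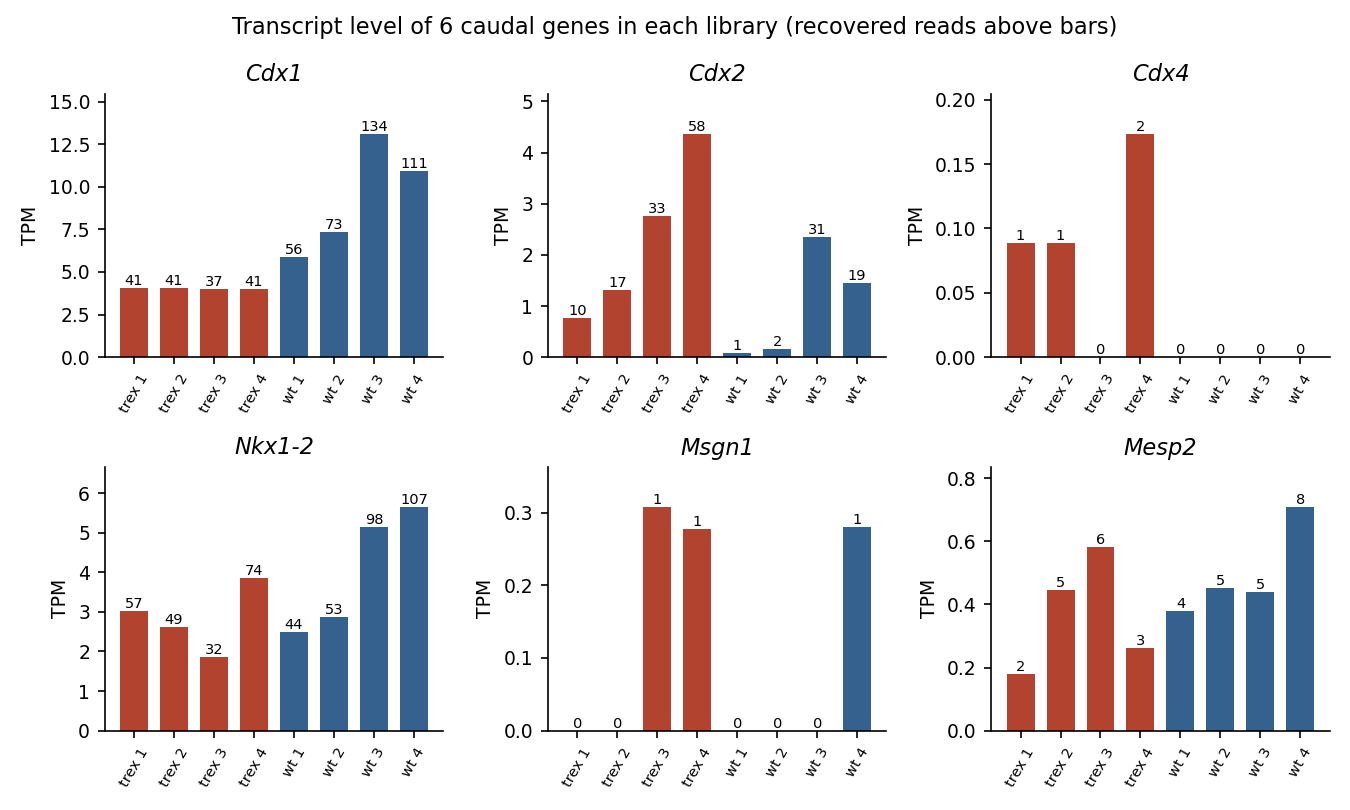
TPM of each of the 6 genes (vertical axes, each with its own range) in the 4 trex and 4 wt libraries, with the recovered reads printed above each bar. Cdx1 stood at 3.99 to 4.07 TPM in trex, below all wt libraries, while Cdx4, Msgn1 and Mesp2 never exceeded 8 reads.

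**Figure D2:**
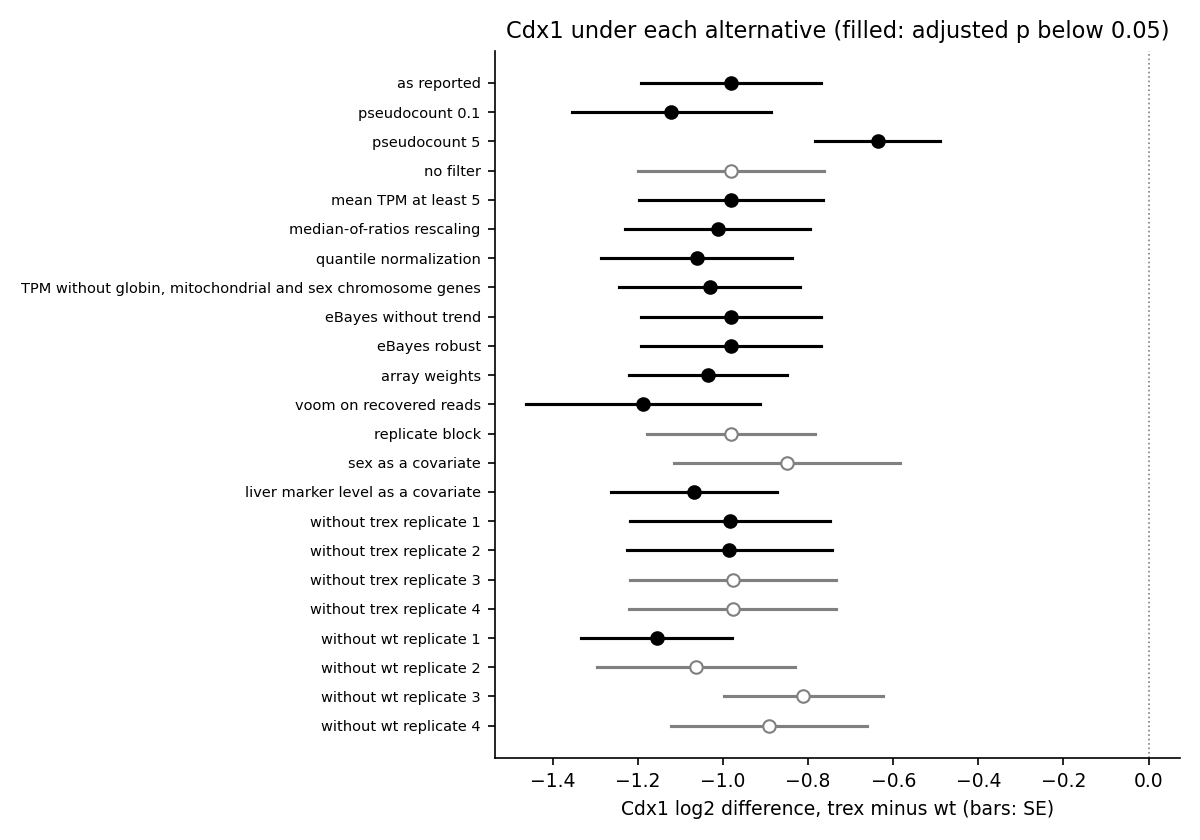
Log2 difference of Cdx1, trex minus wt (horizontal axis, bars are SE), as reported and under each alternative fit. Filled black points have an adjusted p below 0.05 and open grey points do not, and the values run from -1.19 to -0.64.

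Cdx2 had the higher mean in trex, but its libraries overlapped between the genotypes. Cdx2 (ENSMUSG00000029646, chromosome 5, 147300805 to 147307270, minus strand) held 0.767, 1.31, 2.75 and 4.37 TPM in trex replicates 1 to 4, against 0.0814, 0.156, 2.35 and 1.45 TPM in wt replicates 1 to 4. Replicates 3 and 4 were the high libraries in both genotypes, and wt replicates 1 and 2 held 1 and 2 reads of it. It averaged 2.30 ± 1.61 TPM over the trex libraries and 1.01 ± 1.09 TPM over the wt libraries (SD, n = 4 each). The log2 difference of 0.75 ± 0.46 (SE; 95% interval -0.298 to 1.7997) was not called in limma (adjusted p = 0.305), and the exact two-sided permutation p was 0.257. The adjusted p lay between 0.0533 and 0.534 over all alternatives. Its promoter, 250 bases before to 50 after the RefSeq start (GRCm38.p6, chr5:147307200-147307499, minus strand), is shown because Cdx2 is the tested member whose mean was higher in trex; none of 4 short motifs searched on both strands (below) occurs in it.

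Cdx2 promoter: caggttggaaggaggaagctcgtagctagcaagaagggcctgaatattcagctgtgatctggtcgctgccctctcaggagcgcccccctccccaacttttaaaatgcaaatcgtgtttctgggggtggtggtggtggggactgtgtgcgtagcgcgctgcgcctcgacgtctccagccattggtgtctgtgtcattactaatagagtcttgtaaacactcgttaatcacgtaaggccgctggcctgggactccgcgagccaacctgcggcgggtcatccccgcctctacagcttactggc

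The order of the libraries by Cdx2 was close to their order by liver bud markers and, less closely, by heart, trunk Hox and hindgut genes. Of the 28 pairs of libraries, Afp, the fetal liver and yolk sac secretory protein gene, put 27 in the same order as Cdx2, Ttr 27 and Alb 26. Afp held 1.802, 13.0, 161 and 278 TPM in trex replicates 1 to 4 and 0.164, 0.314, 100 and 119 TPM in wt replicates 1 to 4. Over the 11 tested genes of the liver bud list the median was 25 pairs, against 13 pairs over all tested genes, and 8 of the 11 matched at least 24 pairs. The median was 20.5 pairs over 14 cardiomyocyte genes, 21 over 13 trunk Hox genes and 21 over 6 genes of hindlimb and hindgut. The cardiomyocyte genes summed to 249.8, 285, 2305 and 2759 TPM in trex replicates 1 to 4, against 339.6, 1330, 706 and 2838 TPM in wt replicates 1 to 4, so they too were high in trex replicates 3 and 4. None of these 14 was called. The summed level of the 15 listed liver bud genes was between 26.4 and 628 TPM in trex and between 14.6 and 230 TPM in wt. None of the 11 was called, and of the defining markers Alb was at 0 in wt replicates 1 and 2. With the mean liver marker level as a covariate, an alternative added after seeing the data, the Cdx2 difference was 0.41 ± 0.17 (SE, adjusted p = 0.154). The part of liver, gut or heart tissue in the Cdx2 levels was not otherwise tested.

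Cdx1 was set beside the liver markers within each genotype. Among the wt libraries Afp put 5 of 6 pairs in the same order as Cdx1, and replicates 3 and 4 were high in both. While Afp ran from 1.802 to 278 TPM over the trex libraries, Cdx1 stayed between 3.99 and 4.07 TPM there, a spread below its counting error, so no order can be read in trex. With the liver marker covariate the Cdx1 difference was -1.07 ± 0.20 (SE, adjusted p = 0.0262 in limma). That fit used a slope shared by both genotypes, so it could not take out a part confined to wt. The part of liver tissue in the wt levels of Cdx1 was not tested.

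**Figure D3:**
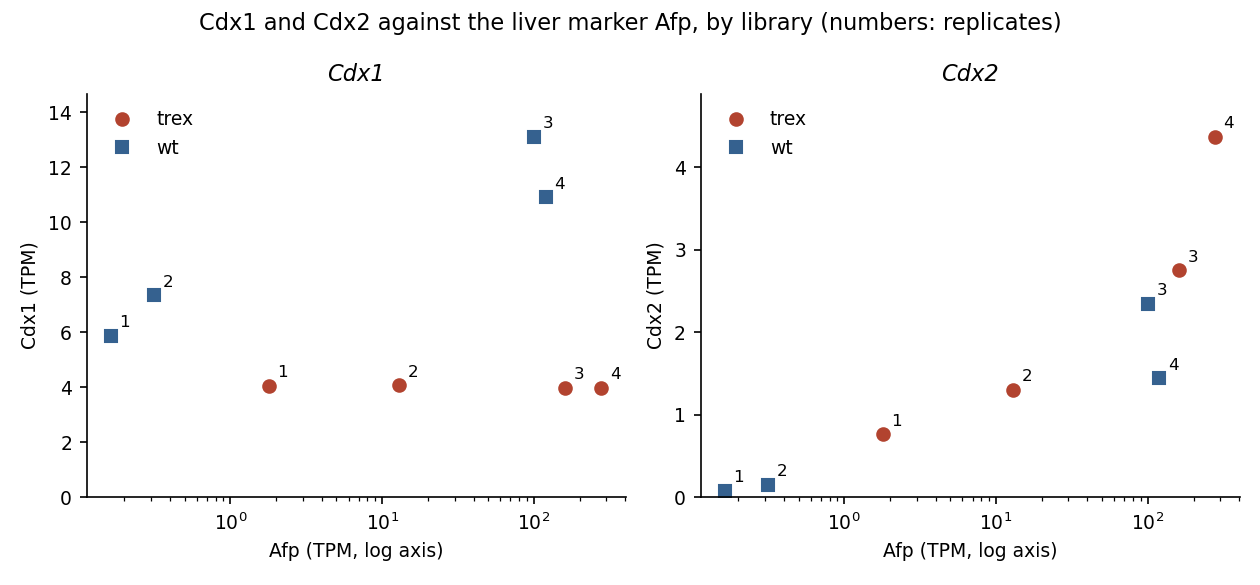
Cdx1 (left, TPM) and Cdx2 (right, TPM) against Afp (TPM, log axis) in trex (circles) and wt (squares), with replicate numbers beside the points. Cdx2 was higher where Afp was higher across both genotypes (27 of 28 pairs in the same order), while Cdx1 lay between 3.99 and 4.07 TPM in trex and was highest in wt replicates 3 and 4, the wt libraries high in Afp.

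The make-up of the Cdx transcripts differed in the same libraries. Cdx2 made up 15.6%, 23.9%, 40.8% and 51.2% of the summed Cdx1, Cdx2 and Cdx4 TPM in trex replicates 1 to 4, against 1.36%, 2.08%, 15.2% and 11.7% in wt replicates 1 to 4. The lowest trex share lay just above the highest wt share. They rested on 10 Cdx2 reads in trex replicate 1 and 31 in wt replicate 3, so their order cannot be read. In trex replicate 4 Cdx2 was above Cdx1, with a Cdx1 to Cdx2 ratio of 0.913, and in every other library Cdx1 was the higher. The sum of the 3 genes overlapped between the genotypes, at 4.92 to 8.53 TPM in trex and 5.97 to 15.5 TPM in wt. These shares were derived from values already tested above and received no test.

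**Figure D4:**
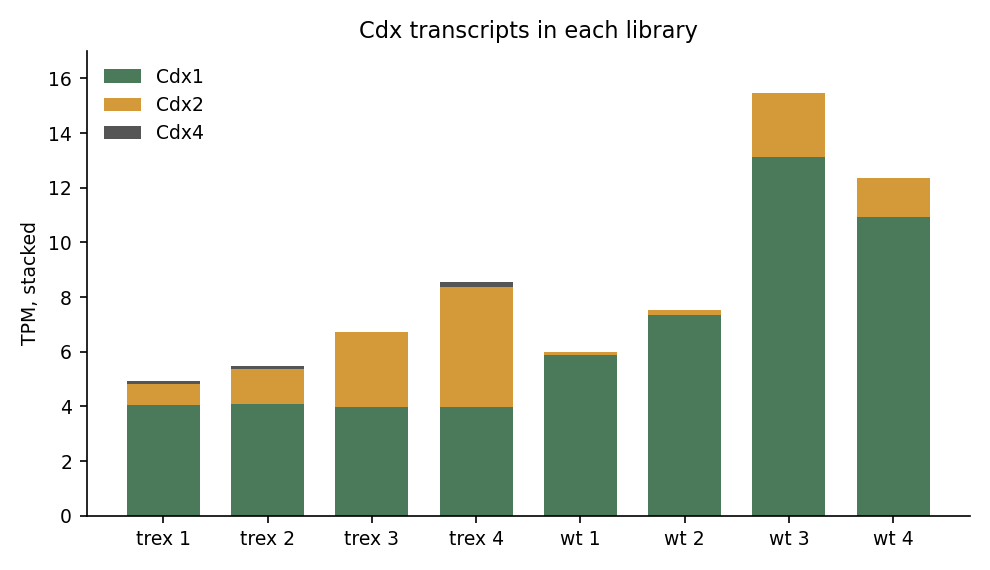
Stacked TPM of Cdx1, Cdx2 and Cdx4 (vertical axis) in each trex and wt library. Cdx2 took 15.6% to 51.2% of the stack in trex and 1.36% to 15.2% in wt, and Cdx4 is barely visible. The shares of 15.6% and 15.2% rested on 10 and 31 Cdx2 reads, so their order cannot be read.

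Cdx4 was at the edge of detection. On chromosome X (ENSMUSG00000031326, 103321398 to 103330592, plus strand), it held 0.0883, 0.0885, 0 and 0.174 TPM in trex replicates 1 to 4 and 0 TPM in all 4 wt libraries. That is 4 reads over the trex libraries and 0 reads over the wt libraries, and 3 reads, the limit that a count of 0 allows, correspond to between 0.260 and 0.288 TPM in a library, a limit that covers counting error only. No fold is given, and the exact two-sided permutation test gave p = 0.143. Expression of Cdx4 could not be told apart between the genotypes at this depth.

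Nkx1-2, a marker of caudal progenitors, overlapped between the genotypes. Nkx1-2 (ENSMUSG00000048528, chromosome 7, 132594878 to 132599637, minus strand) held 3.03, 2.61, 1.85 and 3.86 TPM in trex replicates 1 to 4, against 2.48, 2.86, 5.14 and 5.64 TPM in wt replicates 1 to 4. Wt replicates 3 and 4 stood above every trex library, and wt replicates 1 and 2 lay within the trex range. It averaged 2.84 ± 0.840 TPM over the trex libraries and 4.03 ± 1.59 TPM over the wt libraries (SD, n = 4 each). The log2 difference was -0.36 ± 0.25 (SE; 95% interval -0.94 to 0.22; adjusted p = 0.367 in limma), and the exact two-sided permutation test returned p = 0.286. The annotation places the gene inside a long Fgfr2 transcript on the same strand, and Fgfr2 ran from 54.6 to 83.4 TPM, so the Nkx1-2 level is uncertain as far as the counting could not assign reads to one of them.

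Msgn1 and Mesp2, the presomitic members, were too low to compare. Msgn1 (ENSMUSG00000047002, chromosome 12, 11208360 to 11208972, minus strand) held 0, 0, 0.308 and 0.278 TPM in trex and 0, 0, 0 and 0.281 TPM in wt, each value above 0 being a single read. Mesp2 (ENSMUSG00000030543, chromosome 7, 79810727 to 79813439, plus strand) held 0.178, 0.447, 0.582 and 0.263 TPM in trex and 0.379, 0.454, 0.441 and 0.708 TPM in wt. That was 16 reads over the trex libraries and 22 reads over the wt libraries, with overlapping values and an exact two-sided permutation p = 0.343. Per length, the 6 genes ranked Cdx1, Nkx1-2, Cdx2, Mesp2, Msgn1 and Cdx4 by mean TPM over all libraries, and of neighbours in that order Nkx1-2 and Cdx2, Mesp2 and Msgn1, and Msgn1 and Cdx4 overlapped in the trex libraries, while Cdx2 and Mesp2, and Msgn1 and Cdx4, overlapped in the wt libraries.

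Promoters of the 5 members found in the RefSeq table (all but Cdx1) were searched on both strands for CTTTGA, the core of TCF/LEF sites that carry Wnt signals, for TTTATT, a CDX-type site, for TCACAC, a T-box half-site, and for AGGTCA, a nuclear receptor half-site. Msgn1, known in mouse as a target of Wnt3a and Tbx6, had 2 matches to CTTTGA and no other motif, and the other 4 promoters had no match to any. Of 32851 mouse promoters of the same length, 16.0% held CTTTGA, 19.6% TTTATT, 14.5% TCACAC and 16.3% AGGTCA. The Msgn1 promoter (GRCm38.p6, chr12:11208899-11209198, minus strand) is shown because its gene stayed near 0 beside Wnt genes that were higher in trex (below), with the matches in capitals. A match in this window is a description of its letters and not a binding site.

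Msgn1 promoter: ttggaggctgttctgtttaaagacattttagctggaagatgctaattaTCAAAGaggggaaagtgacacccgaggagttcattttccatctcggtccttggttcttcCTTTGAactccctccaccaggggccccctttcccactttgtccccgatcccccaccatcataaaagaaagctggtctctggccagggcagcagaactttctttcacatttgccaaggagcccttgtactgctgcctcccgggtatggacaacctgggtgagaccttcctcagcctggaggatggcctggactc

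Other tail bud and axial progenitor genes were mostly not called; values given as a mean ± another value below are means ± SD over the 4 libraries of a genotype, and log2 differences are given ± SE. Of 14 listed genes 12 were tested, 1 rose, none fell and 11 were not called, with a median log2 difference of 0.03, against 0.04 over all tested genes. Wnt3a, the Wnt ligand that maintains the progenitors, rose: it held 27.6, 15.7, 18.1 and 13.4 TPM in trex replicates 1 to 4, against 11.2, 8.11, 10.4 and 10.1 TPM in wt replicates 1 to 4. Every trex library lay above every wt library, with trex replicate 1 the highest. The log2 difference was 0.81 ± 0.20 (SE, adjusted p = 0.0432 in limma), or 0.61 ± 0.13 without trex replicate 1, and the call was lost without any 1 of 6 libraries (trex replicates 3 and 4 and all wt replicates; adjusted p up to 0.130). T, the brachyury gene of progenitors and notochord, had the same non-overlapping order, at 13.6 ± 5.09 TPM in trex, against 7.44 ± 0.617 TPM in wt, but missed the threshold (log2 difference 0.73 ± 0.20, adjusted p = 0.0580), and passed it without trex replicate 1 (0.51 ± 0.09, adjusted p = 0.0157) or 2 (0.0406). Lin28a, an RNA-binding regulator of developmental timing, averaged 364 ± 65.7 TPM in trex and 263 ± 31.2 TPM in wt (log2 difference 0.46 ± 0.13, adjusted p = 0.0589), or 0.34 ± 0.09 without trex replicate 1. Fgf8, an FGF ligand of the tail bud, was at 43.7 TPM in trex replicate 1 and at 16.5 to 21.2 TPM in the other trex libraries, against 16.8 to 21.7 TPM in wt. Cyp26a1, which clears retinoic acid from the tail bud, stood at 10.9 ± 5.99 TPM in trex, against 14.6 ± 5.11 TPM in wt. Which tissue of the vagal region held the transcripts of Wnt3a and the other genes of this list was not tested.

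Presomitic and segmentation clock genes moved both ways. Of 15 listed genes 11 were tested, 2 rose, 2 fell and 7 were not called, with a median log2 difference of -0.11. The Notch pathway genes Lfng, a modifier of Notch receptors, and Nrarp, a Notch feedback inhibitor, fell. Lfng averaged 51.3 ± 11.1 TPM in trex and 86.0 ± 10.5 TPM in wt (log2 difference -0.75 ± 0.15, adjusted p = 0.0239), and Nrarp stood at 85.5 ± 16.6 TPM in trex, against 140.9 ± 25.1 TPM in wt (-0.72 ± 0.16, adjusted p = 0.0321). Both are also used in neural tissue, and 4 of 14 neural progenitor genes fell and none rose; the part of that tissue in the fall was not tested. Leaving out trex replicate 4, or any one of wt replicates 1 to 3, ended the Lfng call (adjusted p up to 0.0846); the same omissions and that of trex replicate 3 ended the Nrarp call (up to 0.106).

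Snai1, a driver of the epithelial to mesenchymal transition, rose to 97.3 ± 6.96 TPM in trex, against 81.2 ± 3.11 TPM in wt (log2 difference 0.26 ± 0.06, adjusted p = 0.0336). Its call was lost in 13 of 22 alternatives. Among these were the fits without trex replicate 3 or 4 or any 1 wt replicate (adjusted p up to 0.102). Median-of-ratios rescaling (0.0658) and voom on the recovered reads (0.0868) were others. The other rise was Ripply1, which closes somite boundaries and was named after its values were seen. It averaged 4.02 ± 0.509 TPM in trex and 2.27 ± 0.619 TPM in wt (log2 difference 0.63 ± 0.16, adjusted p = 0.0476), and its call was lost without any 1 library (adjusted p from 0.0525 to 0.124). Tbx6, the T-box gene of presomitic mesoderm upstream of Msgn1 and Mesp2 in mouse, was higher in each trex library than in any wt library but was not called, at 2.07 ± 0.522 TPM in trex, against 1.07 ± 0.145 TPM in wt (adjusted p = 0.0661). Dll3 and Dll1 were lower in each trex library than in any wt library and were not called either. Dll3 stood at 8.51 ± 3.67 TPM in trex, against 19.8 ± 4.48 TPM in wt (adjusted p = 0.0569 in limma). Dll1 stood at 43.1 ± 10.2 TPM in trex, against 58.2 ± 7.57 TPM in wt (adjusted p = 0.139). Of the 11 tested genes 3 lay wholly higher in trex and 4 wholly lower, where 12.9% and 8.95% of all tested genes did. Of the listed genes 4 had a mean below 1 TPM and were not tested. Hes7, a clock repressor, held 58 reads over the trex libraries and 23 over the wt libraries, at 1.41 ± 0.224 TPM in trex, against 0.564 ± 0.284 TPM in wt, with no overlap. Ripply2 had 13 reads over the trex libraries and 7 over the wt libraries, Mesp1 had 3 reads over the trex libraries and 4 over the wt libraries, and Cer1 had 2 over the trex libraries and 6 over the wt libraries.

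Both called Wnt target genes were higher in trex. Of 12 Wnt targets 2 rose, none fell and 10 were not called, with a median log2 difference of 0.27. Lef1, a Wnt-activated transcription factor gene, averaged 30.9 ± 2.23 TPM in trex and 20.6 ± 2.96 TPM in wt (log2 difference 0.57 ± 0.10, adjusted p = 0.0177; 0.0709 without wt replicate 2). Notum, a secreted Wnt inhibitor, stood at 34.8 TPM in trex replicate 1, at 11.7 to 12.5 TPM in the other trex libraries and at 4.61 to 6.69 TPM in wt (log2 difference 1.38 ± 0.32, adjusted p = 0.0367; 1.01 ± 0.12 without trex replicate 1; adjusted p up to 0.114 without trex replicate 3 or 4 or any 1 wt replicate). Ccnd1, a G1 cyclin gene, missed the threshold (adjusted p = 0.0870), at 309.9 ± 31.4 TPM in trex, against 264.3 ± 10.9 TPM in wt.

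Of 20 retinoic acid response genes 8 fell, 1 rose and 11 were not called, with a median log2 difference of -0.32; Cdx1, which is not on that list, also fell. Rarb, a receptor gene itself induced by retinoic acid, held 33.7, 18.7, 22.6 and 25.9 TPM in trex replicates 1 to 4, against 53.9, 60.8, 51.5 and 53.2 TPM in wt replicates 1 to 4. Within wt, Rarb was nearly level where Cdx1 differed by library, and it put 1 of the 6 wt pairs in the same order as Cdx1. Tshz1, a zinc finger gene of the trunk, fell by 1.09 ± 0.06 on the log2 scale (adjusted p = 0.000169, limma).

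Of 24 trunk and caudal Hox genes 13 were tested, 6 rose, none fell and 7 were not called, with a median log2 difference of 1.94; 4 of the 24 were at 0 in all libraries, among them Hoxa13. Genes nearly absent from wt, such as Hoxc8 and Hoxa9, passed the filter on low values through their trex level, so this count and median, and the values of those genes, are descriptions only. Hoxc8, a thoracic Hox gene, stood at 18.2 to 30.0 TPM in trex and at 0.0623 to 0.729 TPM in wt, and Hoxa9 at 6.1975 to 7.03 TPM in trex and at 0.0632 to 1.96 TPM in wt. Hoxb7, well detected in both genotypes, averaged 28.6 ± 7.02 TPM in trex and 12.6 ± 1.98 TPM in wt (log2 difference 1.11 ± 0.18, adjusted p = 0.0121). The trex libraries, low in Cdx1, summed to between 507 and 649 TPM over these genes, whereas the wt libraries high in Cdx1, replicates 3 and 4, summed to 258 and 252 TPM and wt replicates 1 and 2 to 126.5 and 95.03 TPM. Hoxb9 made up the largest part of the trex sums, at 259 to 382 TPM in trex, against 8.57 to 110 TPM in wt. Hoxa10 and Hoxa11, which lie further caudal and were named after their values were seen, were highest in wt replicates 3 and 4. Hoxa10 stood at 0.231 TPM or less in every trex library, against 2.25 and 1.37 TPM in those wt libraries. Hoxc9, Hoxd9 and Hoxd10 of the same list, also named after their values were seen, did not share this order. Hoxc9 held 104 reads over the trex libraries and 1 over the wt libraries. Hoxd9 stood at 13.4 to 21.3 TPM in trex and at 0 to 15.1 TPM in wt. Hoxd10 stood at 0.286 to 2.60 TPM in trex and at 0 to 3.40 TPM in wt. How far caudally each dissection reached was not tested. Among 9 genes of hindlimb and hindgut 6 were tested and 5 were not called. The sixth, the hindlimb gene Pitx1, also named after its values were seen, held 2.28 ± 1.55 TPM in trex, against 0.279 ± 0.213 TPM in wt, and reached the filter on low values through its trex level, so these values are given without a test.

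**Figure D5:**
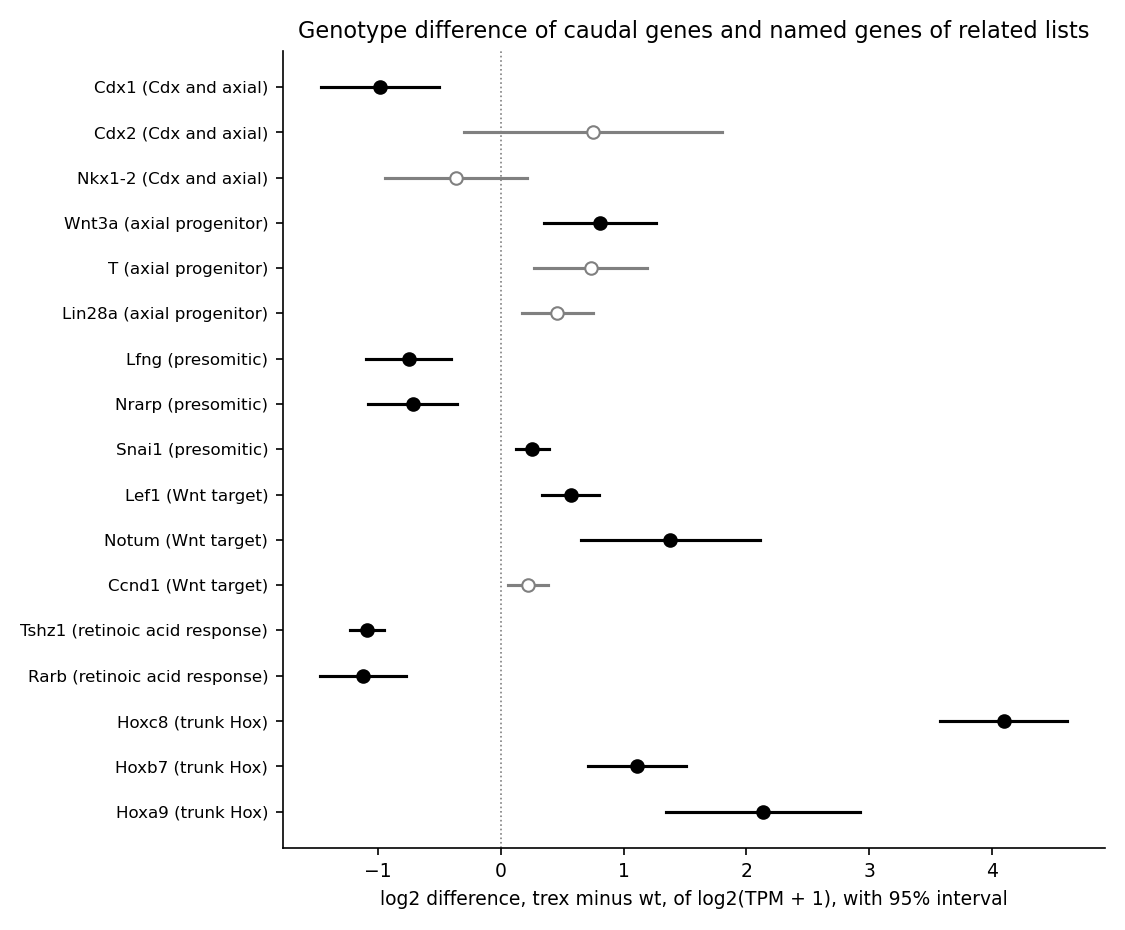
Log2 difference of log2(TPM + 1), trex minus wt, with 95% intervals (horizontal axis), for the 3 tested caudal genes and named genes of 5 related lists. Filled black points passed an adjusted p of 0.05. Cdx1 lies at -0.98 beside Rarb and Tshz1, and Hoxc8 at 4.10. Hoxc8 and Hoxa9 passed the filter on low values through their trex level, so their points are descriptions only.

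The genes whose order over the libraries was most like that of each tested member were found among 12813 protein-coding genes. For Cdx1 these were Rapgefl1, a guanine nucleotide exchange factor-like gene, Zfp619, a zinc finger gene, and Suv39h2, a histone H3 lysine methyltransferase, each with 27 of 28 pairs in the same order. Of those pairs 16 set trex against wt, where Cdx1 does not overlap. Another 5 or 6 lie within trex, where the spread of Cdx1 was below its counting error. The 3 genes were thus picked partly on an order that cannot be read. Rapgefl1 held between 2.46 and 2.84 TPM in trex and between 3.05 and 3.59 TPM in wt, and none of the 3 was called. For Cdx2, Zfpm1, a GATA cofactor, and Shisa3, a Shisa family gene, matched all 28 pairs. Rbp4, the plasma retinol carrier made by liver and yolk sac, matched 27. Cdx2 held 1 and 2 reads in wt replicates 1 and 2, and 10 and 17 in trex replicates 1 and 2. The order within each of these pairs is thus uncertain, and the genes were picked as the closest of 12813. Rbp4 held 15.4, 17.7, 44.2 and 114 TPM in trex replicates 1 to 4 and 6.71, 5.78, 35.8 and 26.01 TPM in wt replicates 1 to 4. For Nkx1-2 no gene matched more than 25 pairs; Emx2, a homeobox gene, Zfp114 and Maob, a monoamine oxidase, did so.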

How the data were processed

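Poly-A selected, strand-specific RNA-seq libraries of 4 trex and 4 wt vagal regions were analysed. The authors deposited TPM values, and every column sums to 1000000. CASAVA 1.8.2, STAR and mm10 are named in the submitters' processing notes, whereas the read counter, strand setting and gene lengths behind the values are not stated there. Symbols, coordinates and exonic lengths came from GENCODE M21 (55154 of 55421 identifiers matched), on the same assembly. Between 98.7% and 98.9% of low values (up to 200 reads) were whole reads within 0.001 read after multiplying by exonic length; those reads state depth and counting error only, besides 1 alternative.

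Genes with a mean TPM of at least 1 were tested with limma 3.58.1 in R 4.3.3 (lmFit, eBayes with trend) on log2(TPM + 1), two-sided, Benjamini-Hochberg over 15717 genes, called below 0.05. The step was tested on simulated data. Single values were also compared by exact permutation tests over libraries. Members, lists and tests were chosen with earlier results of these data known. Named were the 6 members, Rdh10, the 3 genes of smallest p from each of 5 related lists, and the 3 genes per tested member that ordered most of the 28 pairs of libraries alike; 1 of these genes is counted but not reported here. The labels number trex libraries 1 to 4 and wt libraries 5 to 8; the wt libraries were renumbered 1 to 4 in that order, which pairs no libraries. Alternatives changed the pseudocount, filter, scaling, variance model, weights, covariates and libraries.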

Additional observations from a re-analysis of the deposited data

Results flagged for a closer look

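Dixon's gap criterion was applied to the 4 values of each genotype for every named gene. It set 1 library apart in 5 of the 44 cases, where about 1 in 20 would be set apart by chance. Msgn1 stood at 0.281 TPM in wt replicate 4 and at 0 in the other wt libraries, a difference of 1 read. In trex replicate 1, Rdh10 stood at 106 TPM (others 62.7 to 69.0), T at 21.1 TPM (others 10.3 to 12.0) and Notum at 34.8 TPM (others 11.7 to 12.5). Snai1 stood at 107.7 TPM in trex replicate 2 (others 93.0 to 94.7). No value of Cdx1, Cdx2, Cdx4, Nkx1-2 or Mesp2 was set apart in this way.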

How the results depend on the processing

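The count of 1369 genes called was 694 with no filter, 5524 with array weights, 687 with the replicate number as a block, 39 with sex as a covariate, and between 201 and 2911 when 1 library was left out. Cdx1 kept its direction in all 22 alternatives and its call in 14. Its difference was -0.98 with no filter (adjusted p = 0.0612), -0.98 with the replicate block (adjusted p = 0.0518) and -0.85 with sex as a covariate (adjusted p = 0.192), and ran from -1.16 to -0.81 over the fits without 1 library. With no filter more genes were tested, and the unadjusted limma p of Cdx1 was 0.00181, against 0.0013 in the fit as reported. The cause of a lost call was not tested for any alternative. Cdx2 and Nkx1-2 kept their direction and stayed uncalled in all 21 alternatives that tested them (0.27 to 1.74 and -0.65 to -0.19). Of 15 other named genes called, 13 lost their call with sex as a covariate, 6 with no filter, 5 with the replicate block and up to 9 (without wt replicate 2) when 1 library was left out, and none changed direction. Nr2f2 is not among these 15. The 15 include Hoxc8, Hoxa9 and Pitx1, which passed the filter on low values through their trex level, so their calls are descriptions only. The labels give no shared replicate numbers, so the replicate block, run as listed, pairs libraries by order alone and bears on no result. Depth limits Cdx4, Msgn1 and Mesp2, which had at most 8 reads in any library.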
